A study of Mus musculus with 4 samples.

Results

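A set of 10 muscle-associated genes was examined in mouse cochleovestibular ganglia, the young neurons beside the inner ear that carry hearing and balance signals: Actc1, Nexn, Acta1, Acta2, Myh3, Atp2a1, Sln, Chrng, Art5 and Msc. All 10 were found by symbol among the 25239 gene symbols of the deposited tables. The set was picked by name for the TPM of these genes in these same libraries, above all in Isl1CKO and DKO against control and Pou4f1KO, so the differences tied to that label are a description and were not tested. There were 4 libraries from embryonic day 11.5, 1 for each genotype: Isl1CKO, DKO, Pou4f1KO and control. The names were read as a conditional knockout of Isl1, a knockout of both genes, a knockout of Pou4f1, and ganglia with neither label. The Cre driver, the strain, the control genotype and the number of embryos behind a library are not stated in the labels, which call the cells CVG neurons although whole ganglia were dissected. Levels are in TPM, a measure of transcript abundance that is scaled for gene length and library total. A difference is the log2 ratio of (TPM + 1) between 2 libraries, and at least 2-fold means a ratio of 1 or more in size on that scale. No genotype had a replicate, so no difference here has a replicate check and no p-value is given.

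Striated muscle shortens when myosin filaments pull on actin filaments. Calcium released from the sarcoplasmic reticulum starts the pull, and a calcium pump ends it by returning the ion to that store. The nerve's signal reaches the fibre through acetylcholine receptors. In the embryo, myogenic bHLH factors such as MYOD1 and MYOG switch these genes on as a block, while the bHLH protein musculin, the product of Msc, is known as a repressor of that step. ISL1 and POU4F1 are homeodomain transcription factors of sensory neurons, and ISL1 is also known from heart and head muscle progenitors.

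The 4 libraries held 13.6 to 16.6 gigabases of aligned sequence, and a gene at 1 TPM was read 4.95 to 5.93 times per base on average. Neuronal genes were abundant in each library, with Tubb3, the neuronal beta-tubulin, at 3017 TPM in Isl1CKO, 2757 in DKO, 2930 in Pou4f1KO and 2636 in control. Pou4f1 stood at 188, 14.6, 16.6 and 146 TPM in the same order, which goes with its labels. Isl1 stood at 854, 579, 340 and 450 TPM, so that it was not lower where the labels name an Isl1 deletion. A conditional allele may lose only some exons, and TPM over all exons does not check that. Isl1CKO and DKO below stand for what the labels say of these libraries. The libraries form 2 pairs with no library in common, Isl1CKO against control and DKO against Pou4f1KO.

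The 10 genes did not all move one way. Actc1, Nexn, Sln, Atp2a1, Chrng and Art5 were at least 2-fold higher in both pairs. Msc was at least 2-fold lower in both. Myh3 and Acta2 were above their references in both pairs by less than 2-fold, and Acta1 was not above in both. The description "higher with the Isl1 label" therefore holds at 2-fold for 6 of the 10. Of the 15049 genes compared, those at 1 TPM or more in any library, 0.585% were at least 2-fold higher in Isl1CKO than in control and 0.645% in DKO than in Pou4f1KO, with 0.179% higher in both. The corresponding shares of lower genes were 0.618%, 1.12% and 0.213%. These shares give the scale only, because the same contrasts chose the genes. With FPKM in place of TPM the count higher in both pairs was 4, since Atp2a1 and Chrng then lay just under 2-fold in the second pair. Acta1 stayed below 1 TPM in every library, so 9 of the 10 are among the genes compared. In dissected tissue, fewer cells of a type and less RNA per cell cannot be told apart.

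**Figure D1:**
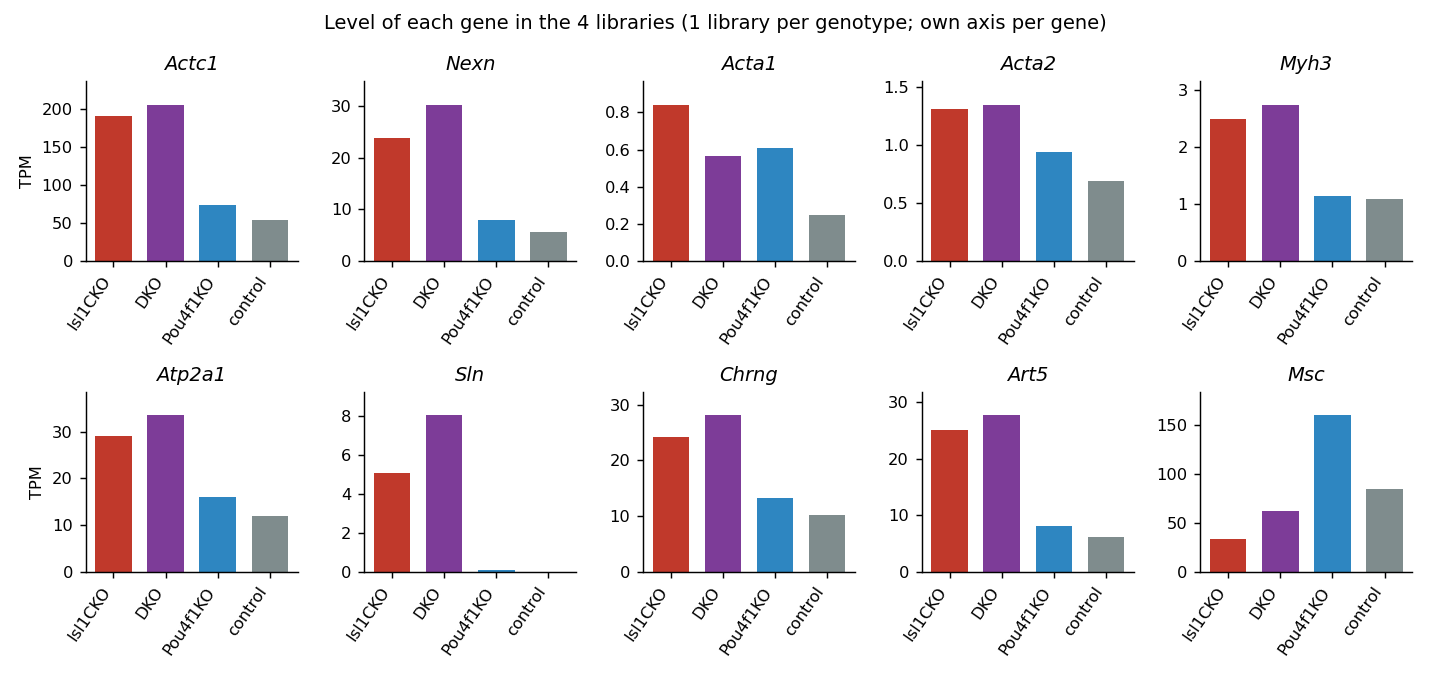
Bars give the TPM of each of the 10 genes in the 4 libraries, 1 library per genotype, with an axis from 0 for each gene and no error bars because there are no replicates. Actc1 stood at 191 TPM in Isl1CKO and 206 in DKO, against 73.1 in Pou4f1KO and 53.9 in control, and Msc showed the opposite order of the pairs.

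The contractile genes ranged from abundant to nearly silent. Actc1 (mm10 chr2:114047284-114052875, minus strand, protein coding, up to 7 exons in GENCODE M21) encodes cardiac alpha-actin, which is also made in embryonic skeletal muscle. It stood at 191 TPM in the library labelled Isl1CKO and 206 TPM in the library labelled DKO, against 73.1 TPM in Pou4f1KO and 53.9 TPM in control. Both Isl1-labelled libraries lay above both of the others. The log2 ratio was 1.81 in Isl1CKO against control and 1.48 in DKO against Pou4f1KO. Among the genes compared, Actc1 ranked 898 in level in Isl1CKO and 824 in DKO, against 3000 in Pou4f1KO and 3992 in control. Its mean read depth was 945, 1198, 422 and 319 reads per base in that order of libraries. Per unit length, its level was 5.94%, 6.27%, 2.42% and 1.74% of that of Actb, the cytoplasmic beta-actin, which itself had log2 ratios of 0.06 and 0.12 in the 2 pairs.

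The other muscle actins were far lower. Acta1 (chr8:123891758-123894775, minus strand), the skeletal alpha-actin, stood at 0.842 TPM in Isl1CKO, 0.564 in DKO, 0.609 in Pou4f1KO and 0.250 in control, at read depths of 1.48 to 4.16 per base. It was highest in Isl1CKO, whereas DKO lay just under Pou4f1KO. Its log2 ratios were 0.56 and −0.04. Acta2 (chr19:34240336-34255373, minus strand), the alpha-actin of smooth muscle, stood at 1.32, 1.35, 0.941 and 0.691 TPM, with log2 ratios of 0.45 and 0.28. Both Isl1-labelled libraries lay above the others for Acta2, but by less than 2-fold and near the bottom of what was measured. Actg2, the gamma-actin of smooth muscle and not one of the 10 genes, stood at 4.06, 3.47, 3.42 and 3.35 TPM, with log2 ratios of 0.22 and 0.01. Of the summed TPM of the 3 alpha-actins Actc1, Acta1 and Acta2, Actc1 made up 98.9% in Isl1CKO, 99.1% in DKO, 97.9% in Pou4f1KO and 98.3% in control. The coding sequences of these paralogs, 1134 bases each in GENCODE M21, are 86.2% identical between Actc1 and Acta1, with no identical run over 29 bases, and 82.5% between Actc1 and Acta2. The labels do not say how reads that fit more than 1 of them were placed, so the low values of Acta1 and Acta2 are uncertain.

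The 250 bases before the start of Actc1 and Acta1 are shown because both promoters carry the same kind of actin-promoter element while the levels of the genes are far apart. They are RefSeq sequences of build GRCm38.p6, read 5′ to 3′ on the gene's strand. Capitals mark matches to any of 5 motifs on either strand: the E-box CANNTG of bHLH factors, the homeodomain core TAAT, the POU octamer ATGCAAAT, the CArG box bound by serum response factor, and the MEF2 site.
Actc1, chr2:114052876-114053125, minus strand: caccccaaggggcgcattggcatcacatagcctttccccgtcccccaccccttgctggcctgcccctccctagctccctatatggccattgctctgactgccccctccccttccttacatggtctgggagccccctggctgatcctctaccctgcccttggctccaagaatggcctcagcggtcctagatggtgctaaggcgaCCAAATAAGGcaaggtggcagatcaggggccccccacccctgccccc
Acta1, chr8:123894776-123895025, minus strand: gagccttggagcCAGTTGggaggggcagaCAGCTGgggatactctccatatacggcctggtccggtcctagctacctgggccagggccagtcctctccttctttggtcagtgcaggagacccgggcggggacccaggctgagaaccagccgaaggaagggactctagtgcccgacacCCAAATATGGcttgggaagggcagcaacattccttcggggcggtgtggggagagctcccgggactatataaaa
Actc1 held 1 CArG box, 47 to 38 bases before the start, and no other match. Acta1 held 1 CArG box, 73 to 64 bases before the start, and 2 E-boxes. Of 32817 promoter windows of this length, 1.47% held a CArG box, 66.2% an E-box, 54.9% the TAAT core, 1.60% the octamer and 2.92% a MEF2 site. The table held 7 of the 10 genes; Nexn, Sln and Msc were not among them. The CArG box was counted only in its exact form, CC and GG around a fixed run of A or T bases. Looser forms of this element were not marked in any window. A match describes the letters in the window and is not evidence of binding. Srf, the gene of serum response factor, stood at 38.2, 37.1, 35.3 and 37.0 TPM in Isl1CKO, DKO, Pou4f1KO and control.

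Nexn (chr3:152236984-152266350, minus strand, up to 13 exons) encodes nexilin, an F-actin-binding protein of the Z-disc and of cell adhesions. It stood at 23.9 TPM in Isl1CKO and 30.3 TPM in DKO, against 8.06 TPM in Pou4f1KO and 5.58 TPM in control. Its log2 ratios were 1.92 and 1.79, place 3 among the genes compared when these are ordered by the smaller of both ratios. Fubp1 lies 154 bases away on the other strand and had log2 ratios of −0.02 and 0.04.

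Myh3 (chr11:67078300-67102291, plus strand, up to 41 exons), the embryonic myosin heavy chain, stood at 2.48 TPM in Isl1CKO and 2.74 in DKO, against 1.14 in Pou4f1KO and 1.08 in control. The Isl1-labelled libraries lay above the other 2, with log2 ratios of 0.74 and 0.81. At this level the added 1 TPM weighs heavily: with a pseudocount of 0.1 the ratios were 1.13 and 1.20, past 2-fold. The perinatal paralog Myh8 stayed below 1 TPM, with extremes of 0.360 TPM in DKO and 0.0856 TPM in control.

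The calcium-handling members were Sln and Atp2a1. Sln (chr9:53850251-53853849, plus strand, 2 exons in its 1 annotated transcript) encodes sarcolipin, a small membrane peptide that binds the sarcoplasmic calcium pump and lowers its efficiency. It stood at 5.09 TPM in the library labelled Isl1CKO and 8.06 TPM in the library labelled DKO, against 0.0913 TPM in Pou4f1KO, and it was listed at 0 in control. Mean read depth was 25.2, 46.9, 0.527 and 0 reads per base. The gene was thus measured in both Isl1-labelled libraries and was at or next to the floor in the other 2. In DKO against Pou4f1KO its log2 ratio was 3.05, a value set largely by the added 1 TPM: it was 5.41 with a pseudocount of 0.1 and 1.92 with FPKM. No fold is given against the control value of 0. No gene that reached 5 TPM in 3 libraries was listed at 0 in the remaining one. Sln reached 5 TPM only in Isl1CKO and DKO, so that rule does not check its value of 0 in control. Its neighbours Slc35f2 and Elmod1 had log2 ratios of −0.10 and 0.44 in Isl1CKO against control, and of 0.35 and 0.08 in DKO against Pou4f1KO.

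Atp2a1 (chr7:126445860-126463073, minus strand, up to 23 exons) encodes SERCA1, the calcium pump of fast skeletal muscle on which sarcolipin acts. It stood at 29.1 TPM in Isl1CKO and 33.5 TPM in DKO, against 16.1 TPM in Pou4f1KO and 11.9 TPM in control. The log2 ratios of 1.22 and 1.02 lie just past 2-fold, and the second was 0.99 with FPKM in place of TPM. Its paralog Atp2a2, the pump of heart and of most other cells, was far more abundant at 202, 200.5, 224 and 218 TPM and had log2 ratios of −0.11 and −0.16. The Atp2a1 row overlaps that of Rabep2 on the other strand, which had log2 ratios of −0.06 and 0.02. Pln, which encodes phospholamban, the heart's relative of sarcolipin, stood at 1.85, 1.59, 1.02 and 0.993 TPM, with log2 ratios of 0.52 and 0.36.

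The cell-surface genes showed the same direction. Chrng (chr1:87205811-87211835, plus strand, up to 12 exons) encodes the gamma subunit of the fetal muscle acetylcholine receptor. It stood at 24.3 TPM in Isl1CKO and 28.1 TPM in DKO, against 13.2 TPM in Pou4f1KO and 10.1 TPM in control. Its log2 ratios were 1.18 and 1.04, just past 2-fold. They became 0.98 in the first pair when libraries were scaled to equal neuronal genes, and 0.996 in the second pair with FPKM, each just short of 2-fold. The subunits it assembles with in muscle were low. Chrna1, the ligand-binding alpha subunit, stood at 0.108, 0.0378, 0.132 and 0.183 TPM, and Chrnd at 0.289, 0.137, 0.0892 and 0.566 TPM. Chrnb1 stood at 2.44, 1.40, 2.08 and 3.05 TPM, highest in control. Chrnd lies 5741 bases before Chrng on the same strand.

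Art5 (chr7:102096879-102100229, minus strand, up to 6 exons) belongs to the ecto-mono-ADP-ribosyltransferases, a family whose founder Art1 is known from the surface of skeletal muscle. It stood at 25.1 TPM in Isl1CKO and 27.7 TPM in DKO, against 8.05 TPM in Pou4f1KO and 6.09 TPM in control. The log2 ratios were 1.88 and 1.66, place 5 in the same order of genes. Art1, which lies 1514 bases away on the other strand, stood at 10.7, 9.18, 6.17 and 4.45 TPM. Its log2 ratios were 1.10 and 0.50, so that it passed 2-fold in the first pair and not in the second. On the other side lies Trpc2, 15 bases from Art5 and on the other strand, with log2 ratios of 0.49 and 0.19. The library kit keeps the strand, but whether the counting used it is not stated.

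The promoters of Chrng and Art5 are shown as those of 2 genes at least 2-fold higher in both pairs. Both hold the E-box, and they differ in the other motifs.
Chrng, chr1:87205561-87205810, plus strand: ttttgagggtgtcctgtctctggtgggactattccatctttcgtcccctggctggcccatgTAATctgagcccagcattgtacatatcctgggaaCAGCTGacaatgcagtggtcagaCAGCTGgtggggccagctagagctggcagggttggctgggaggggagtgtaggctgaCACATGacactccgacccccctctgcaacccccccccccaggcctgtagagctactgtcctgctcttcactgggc
Art5, chr7:102100230-102100479, minus strand: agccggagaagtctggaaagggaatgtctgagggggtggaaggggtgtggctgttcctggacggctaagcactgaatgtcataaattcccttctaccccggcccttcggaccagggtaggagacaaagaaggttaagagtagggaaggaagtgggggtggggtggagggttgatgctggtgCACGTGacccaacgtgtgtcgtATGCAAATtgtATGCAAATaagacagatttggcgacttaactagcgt
Chrng held 3 E-boxes and 1 TAAT core. Art5 held 1 E-box and 2 copies of the POU octamer, 47 to 40 and 36 to 29 bases before the start, the only octamers in the 7 windows. Myh3 and Atp2a1 held 1 E-box each and Acta2 held 3, with 1 TAAT core in Acta2. None of the 7 windows held a MEF2 site, and no matches overlapped. The motifs were chosen after the sequences had been seen.

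Msc (chr1:14753346-14755966, minus strand, up to 3 exons) went the other way. It stood at 33.1 TPM in Isl1CKO and 62.1 TPM in DKO, against 160 TPM in Pou4f1KO and 84.5 TPM in control. Both Isl1-labelled libraries lay below both of the others, with log2 ratios of −1.33 and −1.36, place 10 among lower genes by the same measure. Msc also differed between libraries by the Pou4f1 label, with log2 ratios of 0.92 in Pou4f1KO against control and 0.89 in DKO against Isl1CKO. In DKO against control, libraries that differ by both labels, its log2 ratio was −0.44. Tcf21, its close relative in head muscle progenitors, stood at 0.0489, 0.248, 0.0838 and 0.163 TPM.

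**Figure D2:**
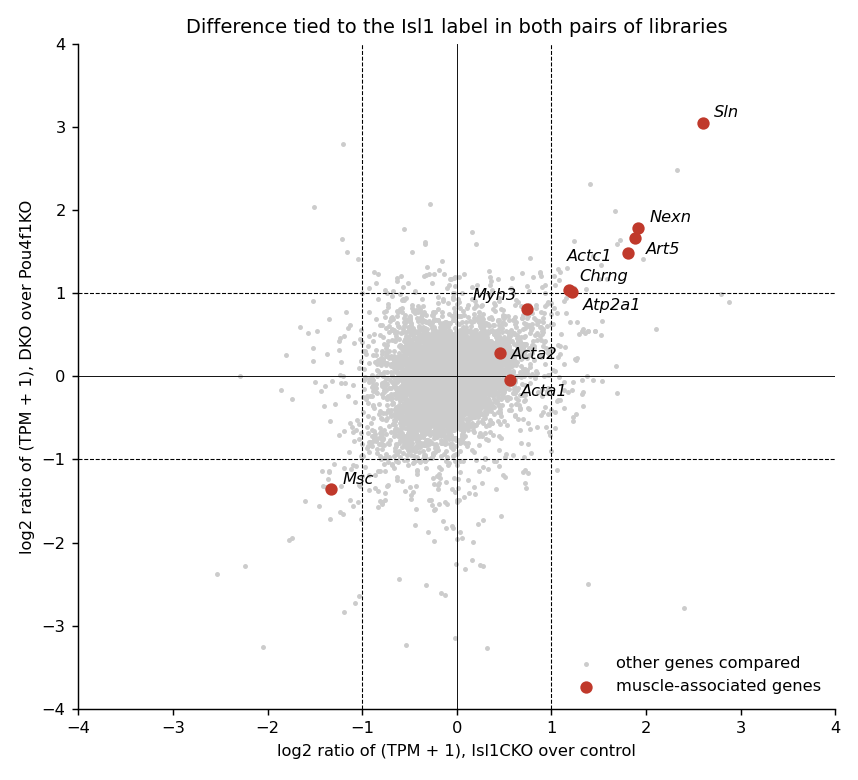
Each point is a gene, placed by its log2 ratio of (TPM + 1) in Isl1CKO over control (horizontal) and in DKO over Pou4f1KO (vertical), with dashed lines at 2-fold; red points are the 10 genes described here, and 3 other genes lie outside the axes. Of the red points, 6 lie past 2-fold in the upper right, Msc lies at −1.33 and −1.36 in the lower left, and Acta1, Acta2 and Myh3 lie between.

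Between the pairs, the ratios differed by less than 2-fold. The second pair's log2 ratio minus the first ran from −0.60 for Acta1 to 0.45 for Sln, with the Sln value at −0.28 under a pseudocount of 0.1. None of the 10 genes reached 2-fold in this comparison, and only 379 of the 15049 genes compared did. At so small a share, few calls would come from 10 genes in any case. The genes were also chosen by both pairs, so alike ratios follow in part from that choice. With 1 library per genotype there is no error to set these differences against. This difference was −0.13 for Nexn, −0.15 for Chrng, −0.20 for Atp2a1, −0.21 for Art5 and −0.33 for Actc1. These differences rest on the scaling, for Actc1 in size and for the other genes in sign. With libraries scaled to equal neuronal genes the values were 0.16 for Nexn, 0.15 for Chrng, 0.10 for Atp2a1 and 0.07 for Art5. Actc1 then stood at −0.0046.

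The Pou4f1 label went with smaller differences. The genes were chosen for their differences by the Isl1 label, so this follows in part from that choice. None of the 10 genes reached 2-fold in Pou4f1KO against control, where 0.977% of all genes were higher and 1.73% lower. All 10 ratios were above 0, from 0.04 for Myh3 to 0.92 for Msc, with a median of 0.36 against 0.02 over all genes compared. Under scaling to equal neuronal genes this median of all genes became −0.25. Myh3 then fell below 0, to −0.11, and Actc1 went from 0.43 to 0.15, while Msc stayed highest at 0.63. Small ratios in this comparison therefore depend on the scaling. None reached 2-fold in DKO against Isl1CKO either, where 0.87% of all genes were higher and 1.23% lower, and the ratios ran from −0.24 for Acta1 to 0.89 for Msc. In DKO against control, which shares its libraries with both pairs, Sln, Nexn, Art5, Actc1, Atp2a1 and Chrng were at least 2-fold higher and none was lower, against 1.01% and 2.34% of all genes. The levels of 8 of the 10 genes, from low to high, followed the order control, Pou4f1KO, Isl1CKO, DKO, as did 4.35% of the genes compared. Acta1 and Msc were the exceptions. Much of this order was set by the choice of genes, which looked at Isl1CKO and DKO against control and Pou4f1KO. The 4.35% comes from genes not chosen in that way, so the 2 shares cannot be compared.

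**Figure D3:**
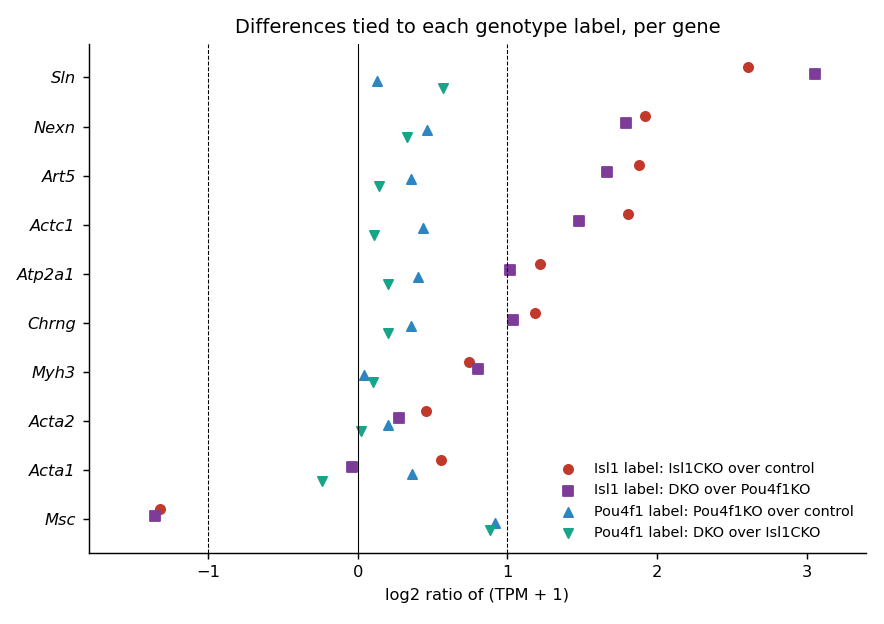
Each row is a gene and each marker a log2 ratio of (TPM + 1): red circles and purple squares for the 2 pairs that differ by the Isl1 label, blue and green triangles for the 2 pairs that differ by the Pou4f1 label, with dashed lines at 2-fold. The Isl1-label markers of Sln, Nexn, Art5, Actc1, Atp2a1 and Chrng lie beyond 1, while no Pou4f1-label marker does.

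The rest of the muscle programme was then examined in 10 gene lists, which hold 161 genes. Of the 152 that are not among the 10 described here, 73 stayed below 1 TPM in every library. Of the 79 others, none was at least 2-fold higher in both pairs, and 2 were at least 2-fold lower in both, beside the 0.179% and 0.213% of all genes given above. The 10 genes left out had been chosen by these same contrasts, and at such shares few calls would come from 79 genes. The lack of higher genes therefore does not show that the rest of the programme was unchanged. The 2 lower calls became 0 with FPKM and 1 with a filter of 5 TPM. Those genes were Mybpc1, a myosin-binding protein of slow muscle, at 0.988 TPM in Isl1CKO, 1.21 in DKO, 4.21 in Pou4f1KO and 4.11 in control, and Jph1, the junctophilin that ties the sarcoplasmic reticulum to the surface membrane, at 2.35, 2.29, 6.31 and 7.57 TPM. The median log2 ratio of the 79 genes was −0.03 in Isl1CKO against control and 0.05 in DKO against Pou4f1KO, beside −0.02 and −0.02 over all genes compared.

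Defining genes of skeletal muscle were low, several of them below 1 TPM in every library. Myod1 stood at 0.555 TPM in Isl1CKO, 0.807 in DKO, 0.0741 in Pou4f1KO and 0.163 in control, and Myog at 0.445, 0.708, 0.778 and 0.899. Myf5 reached at most 0.172 TPM and was listed at 0 in Pou4f1KO. Ttn, the giant spring protein of the sarcomere, stood between 0.0241 and 0.0367 TPM, and the myosin light chain gene Myl1 at 0.479, 0.282, 0.180 and 0.803 TPM. Myod1 was higher in both Isl1-labelled libraries than in the others, but below 1 TPM throughout, and Myog was not. Other skeletal muscle genes of the lists were measured in all 4 libraries. Mylpf, the fast regulatory myosin light chain, stood at 9.48, 9.24, 10.2 and 9.71 TPM, with log2 ratios of −0.03 and −0.13. Ryr1, the calcium release channel, stood at 3.82, 3.83, 3.43 and 2.53 TPM, and Des, the muscle intermediate filament gene, at 1.66, 1.49, 2.46 and 1.92 TPM. Myf6, a myogenic bHLH factor, stood at 1.01, 1.20, 1.38 and 1.67 TPM, and Cdh15, the cadherin of myoblasts, at 1.48, 1.65, 1.33 and 1.66 TPM. None of these 5 genes reached 2-fold in either pair.

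By role, thick filament genes other than Myh3 were mostly low, with 18 of 22 below 1 TPM in every library and a summed level of 15.99 TPM in Isl1CKO, 16.2 in DKO, 19.2 in Pou4f1KO and 20.02 in control. Of 21 Z-disc genes 14 stayed below 1 TPM. Of the others, 3 reached 10 TPM: Actn3, Pdlim5 and Fhl1. Pdlim5, a PDZ-LIM protein, had log2 ratios of −0.32 and −0.33, and Fhl1, a LIM-only protein, 0.02 and −0.11. Actn3, the alpha-actinin of fast fibres, was higher in both pairs but by less than 2-fold. It stood at 130 TPM in Isl1CKO and 160 TPM in DKO, against 97.6 TPM in Pou4f1KO and 73.3 TPM in control, with log2 ratios of 0.82 and 0.70. Of the 13 other measured calcium-handling genes 1 was lower in both pairs, Jph1, and none was higher in either. Stac3, an adaptor of the muscle calcium channel, stood at 9.79, 10.6, 6.41 and 5.58 TPM, with log2 ratios of 0.71 and 0.64. Among thin filament genes, Tnnt3, the fast troponin T, was higher in DKO than in Pou4f1KO alone (2.41 against 0.519 TPM, log2 ratio 1.17), with 0.918 TPM in Isl1CKO and 1.02 in control.

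Of 13 measured transcription factors of the skeletal muscle programme, none was at least 2-fold higher in either pair. In DKO against Pou4f1KO 2 were at least 2-fold lower, beside 1.12% of all genes compared. They were the progenitor genes Lbx1 (log2 ratio −1.31) and Pax3 (−1.10). Lbx1 stood at 0.229 TPM in Isl1CKO, 0.224 in DKO, 2.03 in Pou4f1KO and 0.416 in control. Pax3 stood at 1.39, 2.52, 6.53 and 1.995 TPM. Both were highest in Pou4f1KO, with log2 ratios of 1.10 and 1.33 against control. In Isl1CKO against control their log2 ratios were −0.20 and −0.33. The medians of the 13 were −0.19 and −0.10. Of the 7 other measured head muscle progenitor genes, 1 was at least 2-fold higher in each pair, beside 0.585% and 0.645% of all genes. That gene was Lhx2, a LIM-homeodomain factor, in the first pair and Tbx1, a T-box factor of pharyngeal mesoderm and of the ear, in the second. Lhx2 stood at 12.2, 17.3, 11.5 and 4.03 TPM and Tbx1 at 13.1, 33.8, 9.38 and 11.7 TPM. The log2 ratios were 1.39 and 0.55 for Lhx2 and 0.16 and 1.74 for Tbx1. Lhx2 also had a log2 ratio of 1.31 in Pou4f1KO against control. Of 15 smooth muscle genes besides Acta2, 12 were measured and none reached 2-fold in either pair, with medians of 0.02 and 0.23. Within that list Myh11, Cnn1 and Myocd stayed below 1 TPM, whereas Tagln stood at 8.10, 9.94, 8.95 and 6.65 TPM, Myl9 at 48.8, 69.5, 64.8 and 48.7 TPM and Cald1 at 81.0, 111, 89.3 and 85.6 TPM. Of 19 heart genes 15 stayed below 1 TPM, and Nkx2-5, the cardiac homeobox gene, reached at most 0.0796 TPM and was listed at 0 in DKO and control.

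**Figure D4:**
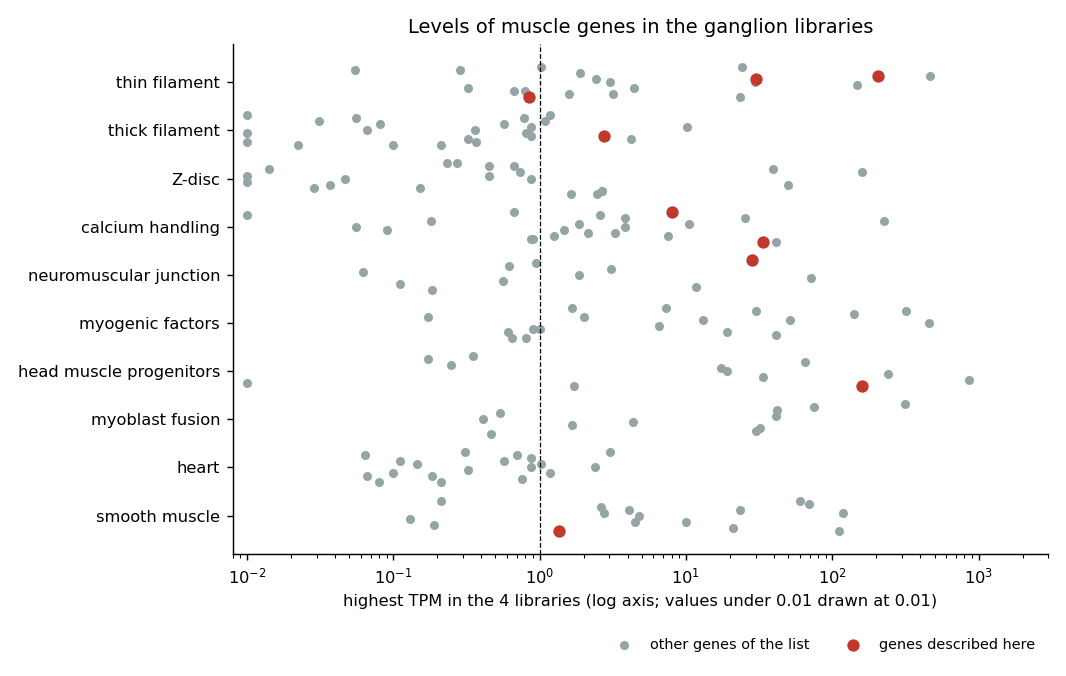
Each point is a gene of a muscle list, placed by its highest TPM in the 4 libraries on a log axis, with red points for the genes described here and a dashed line at 1 TPM. In the thick filament list 18 of the 22 other genes lie left of that line, as do 15 of 19 heart genes.

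Genes of other tissues around the ganglion moved differently between the pairs. The 12 mesenchyme genes summed to 466 TPM in Isl1CKO, 720.2 in DKO, 649 in Pou4f1KO and 581 in control. All 12 were below control in Isl1CKO, with a median log2 ratio of −0.51, and 11 of 12 were above Pou4f1KO in DKO, with a median of 0.56. The 11 endothelial genes summed to 92.8, 157, 122 and 130 TPM, with medians of −0.45 and 0.35. The 7 measured pericyte genes had medians of −0.21 and 0.34. The medians of these 3 lists were below 0 in the first pair and above 0 in the second. The 6 genes higher in both pairs had been chosen by these same contrasts, so their direction cannot be compared with these medians. The part of tissue content in the levels of the 6 genes was not tested.

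Among genes that reached 5 TPM, ordered by the smaller of both log2 ratios, the 10 nearest to the pattern outside the set were Prdm8, Tle6, Bhlhe23, Tle2, Mir12193, Ttr, Pkd2l1, Cyp26b1, Pcdh10 and Medag, a measure that rests on 4 libraries. Prdm8, a zinc-finger factor of neurons, stood at 20.7 TPM in Isl1CKO and 23.9 in DKO, against 3.45 in Pou4f1KO and 3.31 in control. Bhlhe23, a bHLH factor of neurons, stood at 28.9 and 31.9 TPM, against 9.55 and 8.06 TPM. Tle2, a Groucho-type co-repressor, stood at 47.6 and 48.1 TPM, against 15.3 and 13.97 TPM. With the added 1 TPM in each ratio, on which the place of Sln rests because its control value is 0, Sln, Nexn, Art5 and Actc1 held places 1, 3, 5 and 8 in the same order over all genes compared, Chrng place 25 and Atp2a1 place 27.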

How the data were processed

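Mouse ganglion RNA was sequenced as 1 library for each of 4 genotypes. Per the submitters' processing notes, the authors used Trimmomatic, FastQC, HISAT2, SAMtools and StringTie on mm10; their order, settings and annotation are not stated. The deposited TPM values, scaled by the authors for gene length and library total, were used as deposited, with rows of 1 symbol summed (25239 symbols). The deposited FPKM differed from TPM by 1 factor per library and served as an alternative. The deposited coverage column was read as mean depth per base, and its ratio to FPKM gave each library's aligned bases.

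A gene was compared if it reached 1 TPM in 1 or more libraries (15049 genes). Ratios were log2 of (TPM + 1), which understates differences of low genes. There was no test and no read count. The members and lists were chosen with earlier results of these data known. The naming rule covered the members, their neighbours and paralogs, the 10 genes nearest in pattern and up to 6 genes per list with the largest mean ratio over both pairs. Genes below 1 TPM and Srf, Tnnt3, Tubb3, Actg2, Mylpf, Ryr1, Des, Myf6, Cdh15, Pdlim5, Fhl1, Tagln, Myl9 and Cald1 were named after their values had been seen. Of the list symbols, Cyr61 and Ctgf are in the tables under other names (Ccn1 and Ccn2). The scripts ran in Python 3.11.15 with pandas 2.3.3 and were tested on simulated data.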

Additional observations from a re-analysis of the deposited data

Results flagged for a closer look

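Prrx2, a mesenchymal homeobox gene of the mesenchyme list, differed in opposite directions by the Isl1 label: its log2 ratio was −1.04 in Isl1CKO against control and 1.42 in DKO against Pou4f1KO. It stood at 5.71 TPM in Isl1CKO and 17.7 TPM in DKO, against 6.01 TPM in Pou4f1KO and 12.8 TPM in control. The difference between the pairs was not tested, since each genotype has 1 library. None of the 10 muscle-associated genes showed opposite directions past 2-fold.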

How the results depend on the processing

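The alternatives were pseudocounts of 0.1 and 0.5, FPKM, median-of-ratios scaling, scaling to equal neuronal genes, no filter, a filter of 5 TPM and the highest row per symbol. No ratio of a member at least 2-fold apart in both pairs changed sign under any of them. The number of members higher in both pairs, 6, was 4 with FPKM, 5 with scaling to neuronal genes and 7 with a pseudocount of 0.1, where Myh3 joined. The count of other muscle-list genes at least 2-fold lower in both pairs was 2 in the main setting. It was 0 with FPKM and 1 with the 5 TPM filter, where fewer genes are tested. FPKM values were smaller than TPM, for Actc1 in Isl1CKO 69.3 against 191, so the added 1 weighed more in each FPKM ratio. Scaling to equal neuronal genes moved the median of all genes in Isl1CKO against control to −0.23, in DKO against control to −0.17 and in Pou4f1KO against control to −0.25; in DKO against Pou4f1KO it was 0.08. No paired analysis was possible because the genotypes share fewer than 2 replicate numbers, and no library could be left out of a genotype with 1. An additive fit of both labels over the 4 libraries was not run, since these contrasts chose the genes. Depth limits Acta1, Acta2, Myh3 and the low values of Sln most, at read depths of 0 to 15.96 per base outside the higher Sln libraries.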
